A study of Mus musculus and Homo sapiens with 12 samples.

Results

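The RNA helicase DDX21 and its closest relative DDX50 were followed through 12 RNA sequencing libraries in which DDX21 itself had been deleted or knocked down. The 2 genes were taken by symbol, without regard to case, from the deposited normalized tables, and by Ensembl identifier from the raw counts of 55487 mouse and 78932 human genes. Both passed the filter on low counts in both species, among 14918 mouse and 20188 human genes tested. The mouse cells were Kit+ blood progenitors without lineage markers (LK cells), sorted from the livers of fetuses at stage E13.5, counted in days of development. The 3 wild-type (WT) libraries came from Ddx21 f/f embryos without Cre, and the 3 conditional knockout (cKO) libraries came from Ddx21 f/f embryos carrying Vav1-Cre, which is active in blood cells. The loxP-flanked alleles were thus shared by both groups, while Cre was present in 1 of them. In the human experiment, blood stem cell-like cells were differentiated from the embryonic stem cell line H1 and transduced with mCherry lentivirus carrying a control hairpin (shNC, 3 libraries) or a hairpin against DDX21 (shDDX21, 3 libraries). Both human groups were sorted 2 days after transduction as CD34+, CD45+, CD43+ and vector-positive cells, and both rest on 1 cell line. Whether a group's libraries came from separate embryos or cultures, or from pools, is not in the labels, so the p-values below measure only the spread between these libraries.

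DDX21 and DDX50, also known as Gu-alpha and Gu-beta, belong to the DEAD-box family, enzymes that unwind RNA with energy from ATP. Both proteins sit in the nucleolus, where ribosomal RNA is made and processed. DDX21 binds ribosomal RNA precursors and small nucleolar RNAs, and in the nucleoplasm it binds the 7SK RNA particle and helps to release the elongation kinase P-TEFb from it at promoters. DDX50 shares the helicase core and a related C-terminal domain with DDX21, and its own roles are less well described. Blood progenitors divide fast and make many ribosomes, which is the setting in which these nucleolar enzymes are usually discussed.

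The pair lies side by side in both genomes. In the mouse (GRCm38), Ddx21 (ENSMUSG00000020075) spans chromosome 10 from 62580251 to 62602281 and Ddx50 (ENSMUSG00000020076) spans 62615895 to 62651218, both on the minus strand, with 13613 bases between them. In the human tables, whose submitters' processing notes name hg38, DDX50 (ENSG00000107625) spans chromosome 10 from 68901286 to 68946847 and DDX21 (ENSG00000165732) spans 68956135 to 68985068, both on the plus strand and 9287 bases apart. DDX50 is therefore the upstream gene of the tandem pair in each species. No exon base of either gene was shared with another gene of the deposited tables. A small gene on the opposite strand within human DDX50 shared 0 exon bases and had at most 6 counts in a library.

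Sequence from the mouse reference shows how alike the genes are, and whether reads from one could have been counted as the other. The coding sequences of GENCODE M21 encode 851 residues for Ddx21 and 734 for Ddx50, and the aligned proteins were identical at 436 of 705 positions, or 61.8%. Among 36 other Ddx proteins each was the best match of the other, and the next best match of Ddx21, Ddx4, was identical at 31.0%. A stretch of 96 coding bases around helicase motif II, the acidic motif that holds the magnesium ion used with ATP, lay in exon 6 of 15 in both genes. Its bases were identical at 71 of 96 positions (74.0%), and 25 of the 32 encoded residues were the same. The 4 codons of the motif are in capitals, 5′ to 3′ on the minus strand, at chr10:62591839-62591934 for Ddx21 and chr10:62640469-62640564 for Ddx50 (GRCm38).
Ddx21 motif II: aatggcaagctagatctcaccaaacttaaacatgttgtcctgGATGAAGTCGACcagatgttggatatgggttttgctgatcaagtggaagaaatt
Ddx50 motif II: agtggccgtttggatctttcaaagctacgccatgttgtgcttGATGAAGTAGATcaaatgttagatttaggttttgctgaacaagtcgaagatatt

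The ends of the proteins differ. The tail of DDX21 is known for its FRGQ repeats, a glycine- and arginine-rich RNA-binding stretch, and a search of the translated coding sequences found 3 such repeats in Ddx21 and 0 in Ddx50. The 90 bases that hold them lie in the last exon, exon 15 of 15, at chr10:62582404-62582493 on the minus strand (GRCm38), with the codons of each repeat in capitals.
Ddx21 repeats: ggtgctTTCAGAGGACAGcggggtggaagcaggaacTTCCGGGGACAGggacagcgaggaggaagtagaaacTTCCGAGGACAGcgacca

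At the level of sequencing reads the 2 mouse genes were distinct. The longest stretch shared by any of their transcripts, 3 for Ddx21 and 8 for Ddx50, was 23 bases. Windows were then taken from the main transcripts, of 4722 bases for Ddx21 and 2535 bases for Ddx50. Of the 4673 windows of 50 bases in the Ddx21 transcript, 0 occurred in another gene. Of the 2486 such windows in Ddx50, 430 (17.3%) also occurred in the copies Gm14980 on chromosome X and Gm8228 on chromosome 9. At 100 bases, 69 of 2436 windows (2.83%) were shared, with Gm8228. Gm14980 had 0 counts in all 6 mouse libraries, and Gm8228 had 8, 6 and 3 counts in the WT libraries, with 2, 3 and 5 in those of cKO. The treatment of reads that fit several genes is not given in the sources used here, so a small part of the Ddx50 counts is uncertain in that sense. No human reference sequence was used here.

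The start sites of the mouse pair shared 1 longer run of bases. The RefSeq promoter windows (GRCm38.p6) of Ddx21 and Ddx50 had the 11 bases CGGAAGTGACG in common on the same strand, 24 to 14 bases before the Ddx21 start site and 12 to 2 bases before that of Ddx50. Searched on both strands, the 11 bases were present in 154 of 32851 promoter windows (0.469%), which belong to 141 of 27025 genes. The run was picked as the longest match between the windows of the pair, so this share is a description only. A match of letters describes the sequence and does not show that a factor binds there. The 60 bases before each start site are given 5′ to 3′ on the minus strand with the shared run in capitals, chr10:62602299-62602358 for Ddx21 and chr10:62651219-62651278 for Ddx50. The window of a second Ddx50 start site did not hold the run.
Ddx21 promoter: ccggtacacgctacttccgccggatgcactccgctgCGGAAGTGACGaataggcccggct
Ddx50 promoter: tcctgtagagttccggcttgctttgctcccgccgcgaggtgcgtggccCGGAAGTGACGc

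The libraries held 21116079 to 23898130 counts in the mouse and 15289510 to 19798608 in the human experiment. Of the mouse genes tested, 36.5% differed between cKO and WT by edgeR's quasi-likelihood test at a Benjamini-Hochberg adjusted p under 0.05, 20.7% higher and 15.8% lower in cKO. The hairpin against DDX21 went with calls for 52.7% of the human genes, 25.3% higher and 27.4% lower, so a call by itself was common in both experiments. With total-count scaling the split of the mouse calls moved from 3083 higher and 2360 lower to 3565 and 1612. The mouse groups also differed in other ways. The X-linked transcript Xist had between 15278 and 16894 counts per WT library and between 1735 and 2034 per cKO library, and 4 of 4 Y-linked genes examined were higher in cKO, by 0.92 to 1.12 on the log2 scale. The Y-linked Ddx3y had 1078 to 1259 counts per WT library and 2182 to 2677 per cKO library. Every mouse library thus held reads of both Xist and Y-linked genes. Whether each library pooled embryos of both sexes, or a group's libraries shared 1 pool, was not tested. Summed over 5 hepatocyte genes, of which 3 of 3 tested were called higher, the level was 1.21 to 1.66 CPM (counts per 1000000 counts of the library) in WT and 26.1 to 29.9 in cKO, with none of the 5 at or below 3 counts in every library. Over 7 blood progenitor genes it was 1365 to 1435 in WT and 1521 to 1570 in cKO, with 2 called higher and 2 lower. Endothelial genes summed to 6.46 to 9.62 in WT and 6.49 to 7.57 in cKO, stromal genes to 9.51 to 11.1 and 9.41 to 11.6, macrophage genes to 1.94 to 2.56 and 1.09 to 1.36, and genes of the lineage gate to 68.2 to 78.0 and 75.9 to 83.3. Of these lists, Cldn5, Dcn, C1qa, C1qb, Cd3e and Ly6g were at or below 3 counts in every mouse library. In the human cells, 6 progenitor genes with a symbol summed to 1732 to 1769 on the same scale in shNC and 1668 to 1696 in shDDX21. Of these 6 genes, 3 were called higher and 3 lower, so the sum joins changes in opposite directions. The other human lists were lower in shDDX21: endothelial genes, mostly KDR, 1123 to 1159 against 860 to 885, macrophage genes 14.02 to 15.8 against 7.16 to 10.5, stromal genes 70.0 to 75.1 against 44.7 to 49.99, and lineage-gate genes 139 to 142 against 121 to 128. LIN28A, the 1 pluripotency gene of 4 that the human table pairs with a symbol, was at 155 to 164 in shNC and 202 to 208 in shDDX21, and 0 of 5 human hepatocyte genes had a symbol. The part of these differences in the results below was not tested.

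Mouse Ddx21 was among the most abundant transcripts of the WT progenitors and fell steeply in cKO. Reads assigned to it numbered 31438, 29393 and 30866 in the WT libraries, against 6339, 6981 and 6208 in the cKO libraries. With TMM library factors, used for CPM from here on, these were 1410, 1431 and 1432 CPM in WT and 276.0, 282.9 and 281.5 CPM in cKO, and the groups stood far apart with little spread within either. The means were 1424 ± 12.5 CPM and 280.2 ± 3.62 CPM (SD, n = 3 each). The fold change was -2.35 on the log2 scale (SE 0.033, edgeR quasi-likelihood test, adjusted p = 5.91e-08), leaving 19.7% of the WT level. This checks the labels and is the 36th largest decrease among the genes tested. Ranked by CPM, Ddx21 was number 39 in each of the 3 WT libraries and number 625 to 669 in the cKO libraries. The counts cover the whole gene, so transcripts that lack the deleted exons and intact transcripts from cells that kept an allele are counted together. In bulk RNA, fewer cells of a type and less RNA per cell cannot be told apart.

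Ddx50, the paralog that was not targeted, rose in cKO by a small amount. Its counts were 2150, 1848 and 2067 in WT and 2547, 2912 and 2590 in cKO, which is 96.4, 90.0 and 95.9 CPM against 110.9, 118.0 and 117.5 CPM. The lowest cKO library lay above the highest WT library, so the groups did not overlap. On average Ddx50 rose from 94.1 ± 3.61 to 115.5 ± 3.94 CPM (SD, n = 3 each), which is 0.30 on the log2 scale (SE 0.047, edgeR quasi-likelihood test, adjusted p = 0.0026), or 122.7% of WT. The authors' deposited table gave 0.21, 0.32 and 0.33 for the log2 of the 3 cKO libraries over the WT mean, with the 3 WT libraries at 0.02, -0.08 and 0.05. Of all genes tested, 20.7% were called higher, and the median log2 fold change was 0.00.

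The knockdown in the human cells was deeper. Reads assigned to DDX21 numbered 9012, 7128 and 8319 in the shNC libraries, against 1336, 1168 and 1177 in those of shDDX21. In CPM the control libraries were at 476.9, 465.3 and 468.1 and the knockdown libraries at 68.6, 69.2 and 67.0, again with a wide gap between the groups. The means were 470.1 ± 6.05 and 68.3 ± 1.14 CPM (SD, n = 3 each), and the fold change was -2.78 on the log2 scale (SE 0.029, edgeR quasi-likelihood test, adjusted p = 1.33e-70). The remaining level was 14.5% of the control, and the decrease was the 12th largest of the human genes tested. DDX21 moved from rank 189 to 203 by CPM in the control libraries to rank 3344 to 3433 in the knockdown libraries.

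Human DDX50 did not rise with the loss of DDX21. Its counts were 1073, 961 and 1024 under the control hairpin and 1027, 906 and 939 under the DDX21 hairpin, which is 56.8, 62.7 and 57.6 CPM against 52.7, 53.7 and 53.5 CPM. All 3 knockdown libraries lay below all 3 controls, and the distance between the nearest libraries was about as large as the spread within the control group. The mean fell from 59.0 ± 3.22 to 53.3 ± 0.518 CPM (SD, n = 3 each), or by -0.14 on the log2 scale (SE 0.046, edgeR quasi-likelihood test, adjusted p = 0.00616), or 90.5% of the control. This call did not hold under every setting: with upper-quartile factors the log2 fold change was -0.08 with an adjusted p of 0.167, and without shNC replicate 2, the highest control library, it was -0.11 with an adjusted p of 0.0775. Upper-quartile scaling moved all human genes together, and DDX50 stayed 0.15 below the median gene on the log2 scale under it, as in the TMM fit. The authors' deposited table gave -0.17, -0.13 and -0.14 for the log2 of the 3 knockdown libraries over the control mean, with the controls at -0.06, 0.09 and -0.04. Human genes called lower made up 27.4% of those tested.

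**Figure D1:**
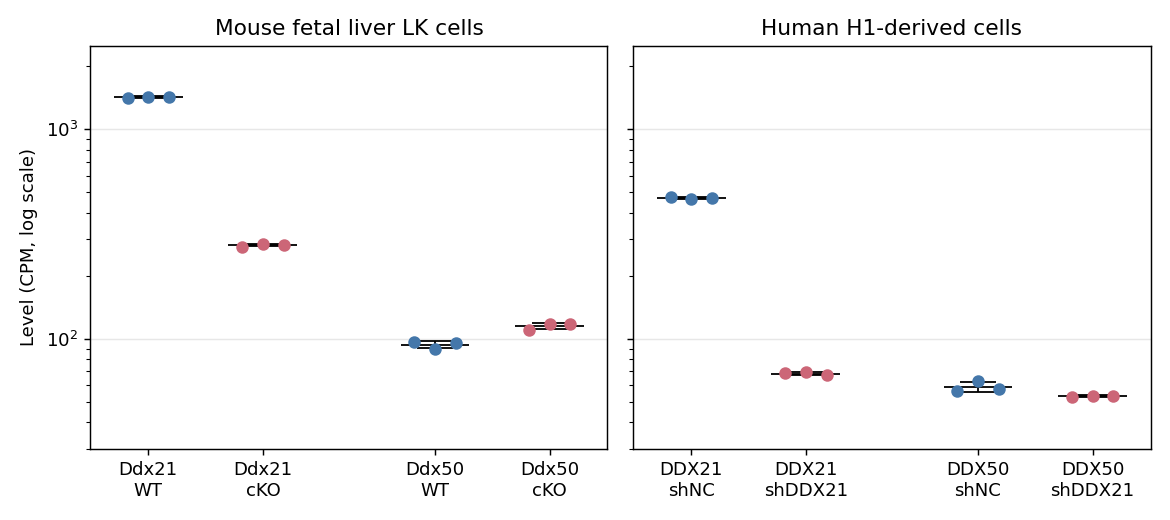
Levels of the pair in each of the 12 libraries, in CPM on a log axis, for mouse (left) and human (right). Points are libraries, the long line is the group mean and the bar its SD. DDX21 drops from 1424 to 280.2 CPM in the mouse and from 470.1 to 68.3 CPM in the human cells, while DDX50 moves by far less and in opposite directions.

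The 2 experiments were set against each other with an interaction test over all 12 libraries and 10313 genes matched by symbol, of which 56.2% differed in response. For DDX21 the log2 fold change in the mouse minus that in the human cells was 0.44 (SE 0.035, edgeR quasi-likelihood test, adjusted p = 8.86e-07), so the loss of transcript was deeper in the knockdown than in the conditional knockout. For DDX50 the difference was also 0.44 (SE 0.066, adjusted p = 0.000146), with the mouse gene higher and the human gene lower than its own control. Species, source of the cells and means of perturbation all differ between the experiments and cannot be told apart. The fit gave each gene the same modelled spread between libraries in both experiments. Fitted apart, the common spread was 10.5% in the mouse and 2.23% in the human cells. The interaction p-values may thus be too small for genes that vary widely between the mouse libraries.

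The spread between libraries was set beside the counting error of a single library. For Ddx21 and DDX21 the coefficient of variation of CPM within a group was 0.875% to 1.66%, and the counting error of a single library was 0.564% to 2.93%. For Ddx50 and DDX50 the variation was 0.971% to 5.45%, against a counting error of 1.85% to 3.32%. The spread was above the counting error for Ddx21 in WT (0.875%) and, by little, in cKO (1.294%), and for DDX21 in shNC (1.286%). It was also above it for Ddx50 in WT and cKO (3.83% and 3.42%) and for DDX50 in shNC (5.45%, the widest group).

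Counting the pair within each library gives a measure of their balance that needs no scaling between libraries, and whose change does not depend on gene length. It was chosen after the values had been seen. The number of Ddx50 counts per Ddx21 count was 0.0684, 0.0629 and 0.0670 in WT and 0.402, 0.417 and 0.417 in cKO. The number of DDX50 counts per DDX21 count was 0.119, 0.135 and 0.123 in shNC and 0.769, 0.776 and 0.798 in shDDX21. Neither pair of groups overlapped. The log2 of this ratio moved from -3.92 ± 0.063 to -1.28 ± 0.031 in the mouse, a difference of 2.64 (SE 0.041), or 6.24-fold. The human value moved from -2.99 ± 0.093 to -0.36 ± 0.028, a difference of 2.64 (SE 0.056), or 6.22-fold (SD, n = 3 each). Single libraries compared across groups differed by 2.56 to 2.73 in the mouse and by 2.51 to 2.74 in the human cells. The targeted gene is the denominator, so its loss fixes the direction of this shift, and no test is given.

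**Figure D2:**
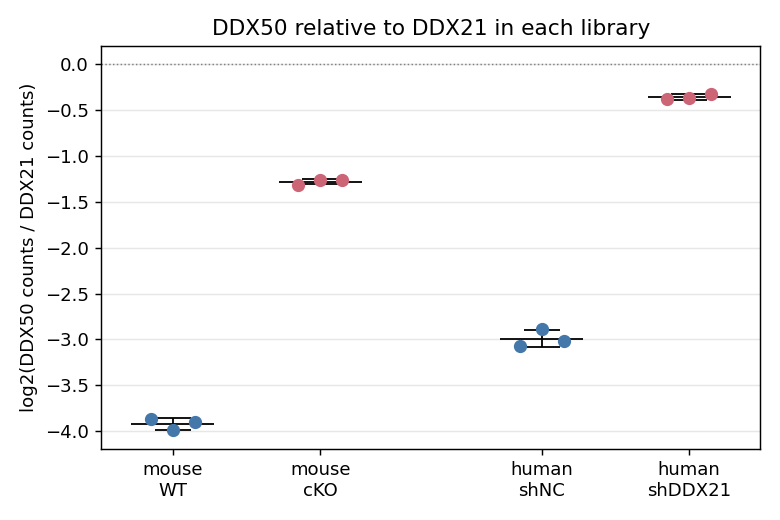
The log2 ratio of DDX50 counts to DDX21 counts in each library, by group. Points are libraries, the long line is the group mean and the bar its SD. In both species the perturbed libraries sit about 2.64 above their controls, and no perturbed library reaches a control library.

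Levels of the 2 genes were set side by side per kilobase (kb) of exon, with the exon lengths of the deposited tables. In the mouse, Ddx21 was at 275 ± 2.41 CPM per kb in WT and 54.1 ± 0.700 in cKO, and Ddx50 at 9.29 ± 0.356 and 11.4 ± 0.389. Human DDX21 was at 50.7 ± 0.652 CPM per kb in shNC and 7.36 ± 0.123 in shDDX21, and DDX50 at 22.0 ± 1.20 and 19.9 ± 0.193 (SD, n = 3 each). On this scale mouse Ddx21 remained above Ddx50 after the deletion, and human DDX21 was below DDX50 after the knockdown. That human order turns without division by length. The DDX50 share of the summed level per kb was 3.27 ± 0.137% in WT and 17.4 ± 0.310% in cKO, a rise of 14.1 percentage points. In the human cells it was 30.3 ± 1.36% in shNC and 73.0 ± 0.381% in shDDX21, a rise of 42.7 points (SD, n = 3). The exact permutation p was 0.1 for each (two-sided), the smallest that 3 libraries against 3 allow, and the loss of the targeted gene fixes the direction here too.

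These shares depend on the exon length in the deposited tables, which joins all annotated transcripts of a gene. That length was 5177 bases in 20 exon blocks for mouse Ddx21, 10129 in 44 for Ddx50, 9274 in 145 for human DDX21 and 2683 in 38 for DDX50. With no division by length the shares were 6.20% and 29.2% in the mouse, a rise of 23.0 points, and 11.2% and 43.8% in the human cells, a rise of 32.7 points. With the coding lengths of GENCODE M21 the mouse shares were 7.12% and 32.3%, a rise of 25.2 points. The levels per kb of different genes therefore carry the length used, and without division by length human DDX50 stayed below DDX21 in both groups.

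The gain of Ddx50 in the mouse was small beside the loss of Ddx21. Ddx21 dropped by 1144 CPM and Ddx50 was 21.4 CPM higher, which is 1.87% of that loss. The summed CPM of the pair in cKO was 26.1% of that in WT. In the human cells DDX21 dropped by 401.8 CPM and DDX50 dropped by 5.74 CPM, and the sum was 23.0% of the control.

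Among all DEAD-box genes with a DDX symbol, ordered by level per kb, Ddx21 was the 2nd of 35 in WT. Ddx3x, a helicase of translation and RNA export, stood next above at 281 ± 5.19 CPM per kb, which does not differ from Ddx21 beyond the spread, and Ddx5 stood next below at 195 ± 6.87. In cKO Ddx21 was the 12th, between Ddx46 at 56.3 ± 1.48 and Ddx10 at 53.5 ± 1.36, again with no gap beyond the spread on the lower side. Ddx50 was the 31st in WT, level with Ddx28 at 9.31 ± 0.492, and the 27th in cKO, level with Ddx31 at 11.5 ± 0.407. In the human controls DDX21 was the 3rd of 34, below DDX5 at 114 ± 0.595 and above DDX3X at 42.8 ± 0.505. After the knockdown it was the 18th, between DDX1 at 10.3 ± 0.0771 and DDX28 at 6.88 ± 0.466. DDX50 was the 11th in shNC, between DDX18 at 22.9 ± 0.595 and DDX1 at 21.6 ± 0.252 and not apart from either beyond the spread, and the 10th in shDDX21.

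Of 33 other mouse Ddx genes tested, 5 were called higher and 9 lower, beside 20.7% and 15.8% of all genes tested, with a median log2 fold change of -0.04 and a range of -0.82 to 1.14, and 4 of the 33 lay above Ddx50. The 5 include the Y-linked Ddx3y, at 0.92. Of 32 other human genes, 4 were called higher and 20 lower, beside 25.3% and 27.4% of all genes tested, with a median of -0.24 and a range of -1.07 to 1.11, and 13 of the 32 lay above DDX50. In both species 0 other family members fell as far as the targeted gene. Human DDX50, at -0.14, was called lower, as were 20 of these 32. No test of the family against other genes was run.

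The partners of DDX21 were then read from a list of 19 genes, chosen from background on proteins said to work with it or to modify it. In the mouse 2 of the 19 were called higher and 4 lower in cKO, beside 20.7% higher and 15.8% lower among all genes. Taken in either direction, the calls were near the 36.5% of all genes. The median log2 fold change of the partners was -0.17 against 0.00 for all genes tested. The mouse count ranged from 3 (without WT replicate 2, and without cKO replicate 3) to 11 (without cKO replicate 1). In the human cells 2 were called higher and 11 lower, beside 25.3% higher and 27.4% lower among all genes, or 52.7% in either direction. The human median was -0.19 against 0.01 for all genes. In each experiment the 2 groups did not overlap for any called partner, and they overlapped for the remaining 13 mouse and 6 human genes. The share of all tested genes without overlap is not given here, so these counts only describe the partners.

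DDX1 and DHX36 are the helicases that form a sensor of double-stranded RNA with DDX21, which signals through the adaptor TICAM1. In the mouse 0 of these 3 were called, with log2 fold changes of 0.08, -0.04 and 0.13. Human DDX1 was at 216.4, 217.9 and 221.4 CPM in shNC and at 104.5, 104.9 and 103.4 CPM in shDDX21. Its level was thus cut to less than the lowest control in every knockdown library, a log2 fold change of -1.07 (SE 0.030, edgeR quasi-likelihood test, adjusted p = 2.02e-43). DHX36 fell by 0.19 on the log2 scale (SE 0.037), and TICAM1 stood at -0.19 (SE 0.156, adjusted p = 0.325). The interaction test separated the responses of DDX1 by 1.15 on the log2 scale (adjusted p = 3.36e-09).

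In the 7SK particle, LARP7 and MEPCE hold and cap the RNA, HEXIM1 inhibits the kinase, and CDK9 and CCNT1 form P-TEFb. LARP7 and MEPCE fell in both experiments. Mouse Larp7 was at 144.9, 147.9 and 150.7 CPM in WT and 121.2, 123.4 and 118.0 in cKO, a log2 fold change of -0.29 (SE 0.037, edgeR quasi-likelihood test, adjusted p = 0.000953). Mepce changed by -0.45 (SE 0.098, adjusted p = 0.0106). Human LARP7 and MEPCE changed by -0.53 (SE 0.057) and -0.37 (SE 0.071), with adjusted p of 6.55e-13 and 8.48e-06 by the same test. The kinase pair was not called in either species: Cdk9 and Ccnt1 stood at -0.22 and -0.04, and CDK9 and CCNT1 at -0.03 and -0.01. Mouse Cdk9 was called without cKO replicate 1 (-0.32, adjusted p = 0.028) and stood at -0.13 without cKO replicate 2. Mouse Hexim1 varied widely between libraries, at 48.2, 44.0 and 28.7 CPM in WT and 32.9, 17.3 and 20.95 in cKO, and its groups overlapped (log2 fold change -0.77, SE 0.270, adjusted p = 0.0626). In 6 of 13 alternatives it was called, with an adjusted p of 0.00829 (without cKO replicate 1) to 0.0434 (RLE factors). Human HEXIM1 stood at 0.02 (adjusted p = 0.811).

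The PeBoW complex of PES1, BOP1 and WDR12 matures the large ribosomal subunit. It was put on the list as background, and whether it binds DDX21 was not examined here. In the human cells, where 27.4% of all genes were called lower, 3 of 3 members fell, by 0.10, 0.40 and 0.32 on the log2 scale for PES1, BOP1 and WDR12 (adjusted p = 0.0174, 1.07e-14 and 1.03e-10, edgeR quasi-likelihood test). The PES1 call was lost with upper-quartile factors (adjusted p = 0.478), with DESeq2 (0.0856) and without shNC replicate 1, shNC replicate 2 or shDDX21 replicate 2. In the mouse Wdr12 was the 1 member called, and it rose by 0.16 (SE 0.045, adjusted p = 0.0282) from 234.0, 234.1 and 246.1 CPM in WT to 253.8, 278.4 and 266.4 in cKO. Its p passed 0.05 in 8 of 13 alternatives, among them DESeq2 (0.172) and the settings without WT replicate 1 or 2 or without cKO replicate 2 or 3. Pes1 stood at 0.05 and Bop1 at -0.33 (adjusted p = 0.43 and 0.142). Bop1 was called with DESeq2 (0.0451), without WT replicate 3 (0.0423) and without cKO replicate 1 (0.0359), and stood at -0.19 without cKO replicate 2. For WDR12 the 2 responses differed by 0.49 (adjusted p = 6.12e-05 in the interaction test).

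Of the abundant nucleolar proteins, nucleolin (NCL), nucleophosmin (NPM1) and fibrillarin (FBL), NCL was called in both species and the others in neither. Human NCL dropped from 1402 ± 7.12 to 898.7 ± 14.8 CPM (SD, n = 3 each), which is -0.64 on the log2 scale (SE 0.019, edgeR quasi-likelihood test, adjusted p = 1.12e-41). Mouse Ncl was at 5040, 5040 and 5030 CPM in WT and 4464, 4807 and 4472 in cKO, a change of -0.14 (SE 0.041, adjusted p = 0.0375). This mouse call was lost in 10 of 13 alternatives, with an adjusted p of 0.0886 by DESeq2 and 0.362 with total-count scaling. Npm1 and Fbl stood at -0.08 and -0.32 in the mouse, where Fbl was called with DESeq2 (0.0434) and without cKO replicate 1 (0.0227) and stood at -0.17 without cKO replicate 2. In the human fit NPM1 and FBL stood at -0.02 and 0.02. With upper-quartile factors human NPM1 and FBL were at 0.05 and 0.09 with adjusted p under 0.05, and with total counts NPM1 was at -0.05, also under it.

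The enzymes that modify DDX21 are CREBBP, which acetylates it, SIRT7, which removes the acetyl groups, and PARP1, which attaches ADP-ribose. Human PARP1 was reduced from 355.3 ± 4.37 to 175.7 ± 4.34 CPM (SD, n = 3 each), which is -1.01 on the log2 scale (SE 0.026, edgeR quasi-likelihood test, adjusted p = 1.25e-45). CREBBP fell by 0.48 (SE 0.030), while SIRT7 rose from 27.7, 28.9 and 22.8 CPM to 34.0, 35.1 and 31.0 CPM, by 0.34 (SE 0.067, adjusted p = 1.42e-05). In the mouse Parp1 fell by 0.27 (SE 0.061, adjusted p = 0.0126), a call lost without WT replicate 2 or cKO replicate 3 (0.0545 and 0.054). Sirt7 and Crebbp stood at -0.23 and -0.16 and were not called, though Crebbp was without cKO replicate 1 (0.0431). The interaction test separated the 2 responses for all 3 enzymes, by 0.75 for PARP1, -0.56 for SIRT7 and 0.31 for CREBBP.

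Of the 2 transcription factors on the list, JUN uses DDX21 as a cofactor and MYC is known to drive genes of ribosome production. Jun rose in both experiments. In the mouse its counts were 52, 40 and 33 without Cre and 127, 117 and 90 with it, a log2 fold change of 1.30 from a level of 1.94 ± 0.401 CPM (SE 0.191, edgeR quasi-likelihood test, adjusted p = 0.00184). Human JUN rose by 0.57 (SE 0.078, adjusted p = 2.44e-09). Human MYC was at 202.0, 200.9 and 195.9 CPM in shNC and at 86.9, 88.0 and 91.1 in shDDX21, a change of -1.17 (SE 0.032, adjusted p = 2.49e-44). Mouse Myc stood at -0.40 with overlapping groups (SE 0.163, adjusted p = 0.094). It was called in 5 of the 13 alternatives, DESeq2 among them (0.0138).

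**Figure D3:**
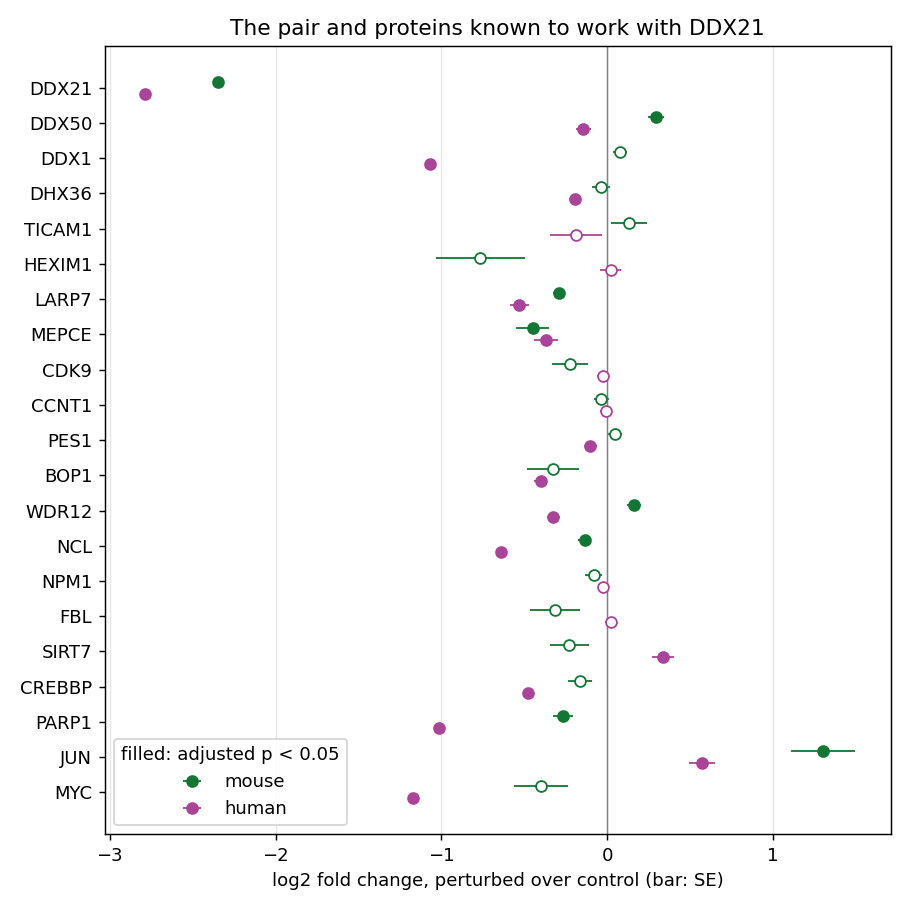
Log2 fold change of perturbed over control libraries for DDX21, DDX50 and the 19 listed partners, with SE bars, in mouse (green) and human (purple). Filled points had an adjusted p under 0.05, which holds for 6 mouse and 13 human partners, and none of the 19 falls as far as DDX21 itself.

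The neighbours of the pair on chromosome 10 were read within 500 kb on either side. Of 41 mouse genes in the window 17 were tested, 3 were called higher and 3 lower, with a median log2 fold change of -0.04 and a range of -1.60 to 2.94. That is close to the 36.5% called among all mouse genes, so the count shows nothing particular to these neighbours. Kifbp, which starts the downstream side 1794 bases from Ddx21, stood at 0.02 (adjusted p = 0.862). Stox1, which encodes a winged-helix protein and lies 7825 bases upstream of Ddx50, rose by 2.94 (SE 0.188, edgeR quasi-likelihood test, adjusted p = 3.42e-05), from 0.618 to 4.81 CPM. That level is far below the 94.1 CPM of Ddx50 in WT. Named after their values were seen, Tet1, further upstream, rose by 1.34 (adjusted p = 1.29e-05), and Tspan15, on the downstream side, fell by 1.60 (adjusted p = 8.47e-05).

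In the human window 17 of 47 genes were tested, 5 were called higher and 4 lower, close to the 52.7% called among all human genes, with a median of -0.12 and a range of -0.91 to 0.37. KIFBP, 3735 bases beyond DDX21, stood at -0.14 (adjusted p = 0.0832), and was called with total counts (0.0333) and without shNC replicate 1 (0.0483). CCAR1, the nearest tested gene with a symbol on the DDX50 side at 108909 bases, fell by 0.12 (adjusted p = 6.02e-05, edgeR quasi-likelihood test), a call lost with upper-quartile factors (-0.05, adjusted p = 0.0787). The DDX50 value of -0.14 is close to those of KIFBP and CCAR1, and CCAR1 is itself the median gene of the window. Whether the region shifted as a whole was not tested. The lowest value of the human window, -0.91, belonged to VPS26A, a retromer subunit, named after its value was seen. Its mouse counterpart Vps26a fell by 0.29 (adjusted p = 0.0017).

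**Figure D4:**
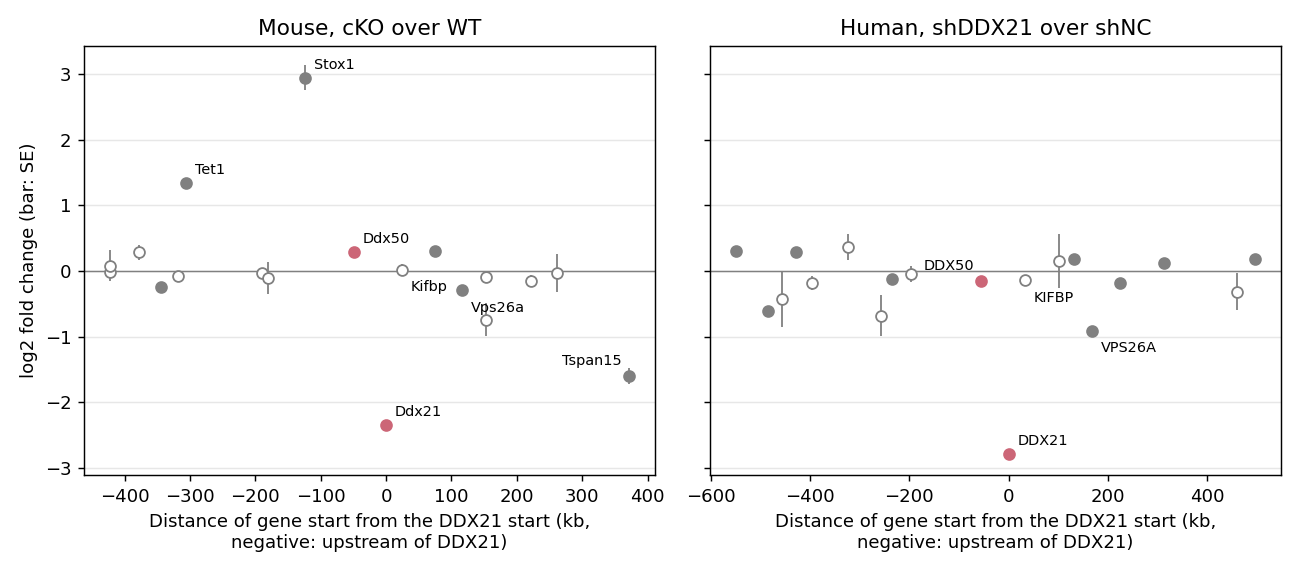
Log2 fold change (with SE) of every tested gene within 500 kb of the pair, by the distance of its start from the DDX21 start in kb, for mouse (left) and human (right). Red points are DDX21 and DDX50, filled points had an adjusted p under 0.05. The targeted gene is the lowest point of each panel, at -2.35 and -2.78, and Stox1 is the highest of the mouse panel at 2.94.

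The genes most like each member across all 12 libraries were found among 8096 matched genes with a mean of at least 5 CPM in each experiment. Likeness was the Euclidean distance between profiles of log2 CPM, centred on each experiment's controls. Nothing came near DDX21. The closest were TIFAB at a distance of 2.48, MPO at 2.82 and IRF8 at 2.85. TIFAB, a regulator of innate signalling, changed by -1.79 in the mouse and -1.49 in the human cells. MPO, the granule enzyme myeloperoxidase, changed by -0.81 and -2.36, and IRF8, a factor of monocyte and dendritic cell development, by -1.86 and -1.22. The mouse Mpo call was lost without WT replicate 1, WT replicate 2 or cKO replicate 3, with adjusted p of 0.0789 to 0.0817. TIFAB, MPO and IRF8 were picked for closeness to the DDX21 profile in these libraries, so their falls are a description only.

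DDX50 had much closer company, at distances of 0.133 for GLOD4, 0.148 for TMSB4X and 0.165 for NUDT5. GLOD4 belongs to the glyoxalase-domain proteins, TMSB4X encodes the actin-binding thymosin beta 4, and NUDT5 encodes a hydrolase of ADP-sugars. Their log2 fold changes were 0.27, 0.27 and 0.32 in cKO and -0.15, -0.13 and -0.12 in shDDX21. These directions follow from how the genes were picked and are a description only.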

How the data were processed

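Messenger RNA was sequenced in 12 libraries, 3 in each of 4 groups. A column kit for small samples was used for RNA and a poly(A) mRNA kit for the libraries, per the labels' protocols. The submitters' processing notes name STAR, featureCounts, DESeq2 and the builds mm10 and hg38, with no versions or order. The strand setting is not given in the sources used here. The deposited tables hold whole-number read counts per gene with positions and exon lengths. A second deposited table holds normalized signal, checked to equal raw counts over a library-wide constant (largest relative deviation 4.97e-10), and the log2 of that signal over the control mean; it supplied symbols and the values credited to the authors. Mouse positions matched GENCODE M21 for 99.4% of shared identifiers.

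Each experiment was fitted on its own in edgeR 4.0.16 under R 4.3.3 (raw counts, filterByExpr, TMM factors, quasi-likelihood test, two-sided, Benjamini-Hochberg adjustment over all genes tested, call at 0.05). The difference of the responses was an interaction in 1 fit of 12 libraries over genes matched by symbol. Exact permutation tests were run with scipy 1.17.1. CPM uses TMM-scaled library sizes, SD is over 3 libraries, and counting errors cover reads only, since no molecular identifiers were used. The procedure was checked on simulated counts. Proteins translated from GENCODE M21 were aligned with Biopython 1.88, and promoters came from the RefSeq table of GRCm38.p6. Markers at or below 3 counts in every library were treated as at the floor.

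The genes named are the pair, the 19 listed partners, the nearest tested neighbour with a symbol on each side, the 3 most alike genes of each member and the neighbours in level per kb. Tet1, Tspan15, VPS26A, Ddx3y, Xist, LIN28A, KDR and Ddx4 fall outside this rule, and were named as checks or after their values were seen. The markers named as at the floor and the copies Gm14980 and Gm8228 fall outside it too. The pair, the lists and the rules were chosen with earlier results of these data known. Alternatives were other library scalings (RLE, upper-quartile, total counts), other filters on low counts, DESeq2 1.42.0, the replicate number as a block, leaving out each library, and other gene lengths.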

Additional observations from a re-analysis of the deposited data

Results flagged for a closer look

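The following genes responded differently in the 2 experiments by the interaction test (edgeR quasi-likelihood, adjusted p under 0.05). Each value is the log2 fold change in the mouse minus that in the human cells. For the pair it was 0.437 for DDX21 and 0.442 for DDX50. Among the partners whose value was positive, it was 1.145 for DDX1, 0.770 for MYC, 0.747 for PARP1, 0.734 for JUN and 0.504 for NCL. Smaller positive values were 0.487 for WDR12, 0.311 for CREBBP, 0.241 for LARP7 and 0.149 for PES1, the last with an adjusted p of 0.0467. Negative values were found for HEXIM1 at -0.789 (adjusted p = 0.0484) and SIRT7 at -0.565 (adjusted p = 0.0121). Of the genes picked for their likeness in profile to DDX21, MPO differed by 1.558 and IRF8 by -0.647. GLOD4, TMSB4X and NUDT5, picked for their likeness to DDX50, differed by 0.423, 0.393 and 0.439, which their choice fixed. A difference of this kind was called for 56.2% of the 10313 genes matched, and what it comes from was not tested. The calls rest on a spread per gene shared by both experiments, as said above.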

How the results depend on the processing

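The pair kept its directions in all alternatives run. Ddx21 ranged from -2.36 to -2.28 on the log2 scale, Ddx50 from 0.26 to 0.36 (adjusted p up to 0.0188), DDX21 from -2.81 to -2.71 and DDX50 from -0.18 to -0.07. The differences of response ranged from 0.39 to 0.53 for DDX21 and from 0.40 to 0.54 for DDX50. The DDX50 decrease missed the threshold with upper-quartile factors (-0.075) and without shNC replicate 2 (-0.106). Requiring a 2-fold change as well left 1354 mouse, 1450 human and 1330 interaction calls. The rise of the DDX50 share was 23.0 and 32.7 points without division by length and 25.2 with mouse coding length, an alternative added after seeing the data. Leaving out 1 library moved the mouse partner count between 3 and 11, mouse calls between 3717 and 5671 and human calls between 9820 and 10079.

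The replicate numbers did not pair the libraries (correlation of same-numbered deviations 0.316, -0.177 and 0.0131 in the mouse, and -0.0138, -0.00238 and -0.000862 in the human cells). Mouse libraries of unlike number reached 0.408 (WT replicate 3 with cKO replicate 2) and -0.419 (WT replicate 3 with cKO replicate 1). Shifts of single mouse genes on leaving out a library may therefore not be independent of each other. With the replicate block there were 5166 mouse, 10601 human and 5721 interaction calls, Ddx50 stood at 0.295 (adjusted p = 0.00982) and DDX50 at -0.145 (0.00578). Paired, the shares gave an exact sign-flip p of 0.25, the smallest possible.

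Of 702 values for 54 single-gene results, 631 kept direction and call, 32 lost a call, 22 gained one and 17 reversed, all of them uncalled in the reported fit. With total counts mouse Dhx36 was 0.025, Ccnt1 0.031, human HEXIM1 -0.009 and FBL -0.010. With upper-quartile factors human CDK9 was 0.044, CCNT1 0.062 and NPM1 0.045, and with at least 10 counts CCNT1 was 0.003. Leaving out 1 library gave ranges of -0.068 to 0.004 for mouse Dhx36, -0.054 to 0.007 for Ccnt1, -0.031 to 0.091 for Kifbp, and for human genes -0.045 to 0.063 for HEXIM1, -0.080 to 0.011 for CDK9, -0.021 to 0.013 for CCNT1 and -0.011 to 0.039 for FBL. The causes were not tested. Human DDX50 rests on 906 to 1073 counts per library. Coding length from RefSeq was not run for want of a protein table.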
